A study of Drosophila melanogaster with 12 samples.

Results

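Shavenbaby (Svb) is a zinc finger transcription factor encoded by the ovo locus of Drosophila melanogaster. It is made as a long protein that represses its target genes, and Polished rice peptides trigger its partial degradation by the proteasome into a shorter activator. In the embryonic epidermis this switch controls the genes that shape cuticle hairs, and in the adult midgut Svb works in the intestinal stem cells that renew the epithelium. Svb3Kmut has substituted lysines that block the trimming, so that the protein stays a repressor, and cells that express it carry the label SvbREP.

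Forced expression of SvbREP was compared with control in 6 of the 12 RNA-seq libraries of the study, 3 for each genotype, which were chosen by their labels and by no measured value. Both genotypes carried 1 copy of a chromosome with esg-Gal4 and UAS-GFP, and 1 copy of tubGal80TS, a temperature-sensitive inhibitor of Gal4. The control came from a cross of this driver stock to Canton-S and had no UAS-Svb transgene. The SvbREP flies also carried UAS-Svb3Kmut::GFP. Virgin females aged 3 days were kept at 29 °C, where the driver is active, for the next 6 days and dissected at 9 days of age. Animals were pooled, with over 20 females behind each library. GFP-positive cells were sorted from the posterior midgut, regions R3 to R5, and replicates were made on separate calendar days. The esg driver is active in stem cells and in their enteroblast daughters, and the sorted cells can hold both. The control lacks the extra UAS insertion as well as the Svb protein made from it. Its Canton-S parent may also differ from the transgene parent in the rest of the genetic background. Effects of these cannot be told apart in this pair of groups. Libraries of the third genotype, which expressed the activator form SvbACT::GFP from the same driver, are used below for side values.

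The 3 control libraries held 5557969, 5625256 and 6575392 counts in replicates 1, 2 and 3, and the SvbREP libraries held 2965852, 3584798 and 5786969. Levels are given as CPM, counts scaled to a common library size with edgeR's TMM factors, and a library's floor, taken as 3 counts, lay between 0.456 and 1.01 CPM. The 16 tested markers of progenitor cells summed to 19555 to 22697 CPM in control and 17927 to 21084 CPM in SvbREP. Among them were esg, Delta (Dl), Notch (N) and Sox21a. Visceral muscle markers summed to 1682 to 1848 CPM in control and 1613 to 1805 CPM in SvbREP. Single libraries stood apart in 2 ways that touch results below. Control replicate 1 held 132 CPM of digestive enzyme transcripts against 1256 and 1197 CPM in control replicates 2 and 3. SvbREP replicate 3 held 2373 CPM of enteroendocrine markers against 5128 and 6274 CPM in SvbREP replicates 1 and 2. In bulk libraries, fewer cells of a type and less RNA per cell cannot be told apart.

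The ovo gene (FBgn0003028, chromosome X, 5048273 to 5070929, plus strand) was examined first as a check of the SvbREP and control labels. This check cannot tell SvbREP from SvbACT, where ovo was at a similar level. The ovo level was 0.746, 11.5 and 0.482 CPM in the control libraries and 2085, 2174 and 2212 CPM in the SvbREP libraries. All SvbREP libraries lay far above every control library and close to each other. The log2 fold change was 9.01 (edgeR adjusted p = 1.05e-07, SE 0.558), and it was 11.75 without control replicate 2, the control library with the highest level. Transcripts of the transgene and of the endogenous gene are not separated in these counts. A long noncoding RNA annotated on the other strand across part of ovo, lncRNA:CR44833 (chromosome X, 4956646 to 5063868), was at 3.17, 1.97 and 2.73 CPM in control. It reached 90.2, 43.1 and 30.1 CPM in SvbREP, with a log2 fold change of 4.35 (edgeR adjusted p = 2.93e-05, SE 0.449). The same RNA was at 4.91, 1.42 and 2.45 CPM in SvbACT, where ovo itself was at 2057, 2267 and 2083 CPM. In svb RNAi it was also above the controls, at 27.3, 43 and 40.4 CPM, with ovo at 49.6, 36.8 and 37 CPM. The strand setting of the counting is not stated in the sources used here, so the counts of these overlapping genes are uncertain.

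Across the transcriptome more genes fell than rose in the fit with all libraries. With edgeR and a threshold of 0.05 on the adjusted p-value, 324 of 7992 genes tested (4.05%) differed between SvbREP and control. SvbREP was higher for 108 (1.35%) and lower for 216 (2.7%). The change was over 2-fold for 184 of them, 68 higher and 116 lower. The median log2 fold change of all genes tested was -0.003. The count depended on single libraries: it was 195 without SvbREP replicate 1, 182 without SvbREP replicate 2, 460 without SvbREP replicate 3 and 172 without control replicate 3. Genes called higher numbered 64, 55 and 232 without SvbREP replicates 1, 2 and 3, and 71 and 54 without control replicates 1 and 3. Genes called lower numbered 131, 127 and 228 without SvbREP replicates 1, 2 and 3, and 118 without control replicate 3. The excess of decreases was therefore not kept without SvbREP replicate 3, where 232 genes were higher and 228 lower. As shares of the genes tested in those fits, calls without SvbREP replicate 1 were 0.784% higher and 1.6% lower, and without SvbREP replicate 2 they were 0.673% higher and 1.55% lower. The authors' deposited table calls 531 genes for this comparison, 177 higher and 354 lower, and 322 of them were also called here.

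**Figure D1:**
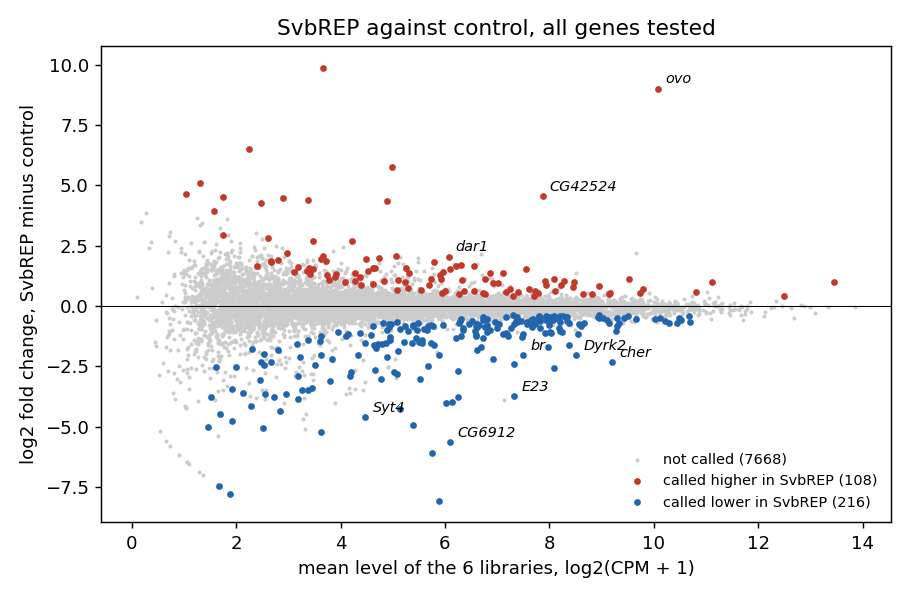
Log2 fold change of SvbREP over control (vertical axis) against the mean level of the 6 libraries in log2(CPM + 1) (horizontal axis) for each gene tested. The 108 genes called higher are red, the 216 called lower are blue and the other genes are grey. ovo stands far above the other genes of its level, and E23, Syt4 and CG6912 are labelled among the genes with large decreases.

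Nearly all called genes showed the change in each SvbREP library. A gene was counted as seen in all 3 libraries where every SvbREP library lay beyond all 3 control libraries on the side of the call. This held for 315 genes (3.94% of those tested), 106 higher and 209 lower, and the remaining 9 had 1 or 2 such libraries. The calls and this rule use the same counts. Non-overlap of groups in called genes, here and below, is therefore a description and not a separate test. Among all genes tested, called or not, 1544 (19.3%) had all 3 SvbREP libraries beyond the controls on the same side. Called genes lay on every large chromosome arm, between 3.51% of the genes tested on 3L and 4.61% on X. The genes described next were called in all 3 libraries, and, unless a library is named, they were also called in each of the 6 fits that left out 1 SvbREP or control library.

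The decreases included genes named for their response to the steroid hormone ecdysone. E23 (chromosome 2L, 3334875 to 3354829), an ABC transporter gene induced by ecdysone, was at 312, 263 and 316 CPM in control and at 23.4, 21.4 and 22 CPM in SvbREP. Its log2 fold change was -3.74 (edgeR adjusted p = 1.48e-09, SE 0.154). Broad (br, chromosome X, 1575132 to 1664869), a family of zinc finger factors best known from metamorphosis, was at 297, 255 and 313 CPM in control and 82.8, 55.5 and 72.4 CPM in SvbREP. In both genes the SvbREP libraries agreed closely with each other and lay well under the controls. The nuclear receptor gene Eip78C (chromosome 3L, 21226609 to 21266503) was at 59.3, 48.7 and 64.8 CPM in control and 4.41, 6.87 and 11.9 CPM in SvbREP. The log2 fold changes were -2.04 for br (edgeR adjusted p = 1.89e-06, SE 0.16) and -2.81 for Eip78C (edgeR adjusted p = 5.09e-05, SE 0.308). Of 20 tested genes listed for ecdysone response and nuclear receptors, these 3 and Hnf4 were called lower and none was called higher, with a list median of -0.16. The ecdysone receptor gene EcR was at 489 ± 46.2 CPM in control and 540 ± 19.6 CPM in SvbREP (SD, n = 3 each), and its coactivator gene tai at 1379 ± 110 and 1257 ± 96 CPM. The early response genes Eip74EF and Eip75B were at 807 ± 86.3 and 830 ± 43.9 CPM in control and 679 ± 38.3 and 770 ± 12 CPM in SvbREP. The ecdysone importer gene Oatp74D was at 178 ± 19 and 185 ± 41.4 CPM. None of these 5 passed the test, so the calls of this list lay on a few members.

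Other strong decreases were found in genes of the actin cytoskeleton and of kinase signalling. Cheerio (cher, chromosome 3R, 17091533 to 17125389) encodes filamin, which crosslinks actin filaments. It was at 888, 1117 and 941 CPM in control and 144, 237 and 205 CPM in SvbREP, a log2 fold change of -2.33 (edgeR adjusted p = 8.04e-07, SE 0.17). LIMK1, the kinase that phosphorylates the actin severing protein cofilin, was at 249, 279 and 272 CPM in control and 39, 59.1 and 52.3 CPM in SvbREP, a log2 fold change of -2.4 (edgeR adjusted p = 7.6e-08, SE 0.143). Enabled (ena), which lengthens actin filaments, fell by 1.03 on the log2 scale, from 404, 405 and 381 CPM to 203, 211 and 168 CPM. The groups did not overlap in any of these 3 genes. Of 27 tested actin cytoskeleton genes, a list that does not hold LIMK1, cher and ena were called lower and none higher, with a list median of -0.03. Actin itself (Act5C) was at 3397 ± 255 CPM in control and 2998 ± 564 CPM in SvbREP (SD, n = 3 each) and did not pass the test. Dyrk2, a member of the DYRK family of protein kinases, was at 588, 581 and 586 CPM in control and 145, 141 and 141 CPM in SvbREP. The spread within each group was small beside this difference, and the log2 fold change was -2.04 (edgeR adjusted p = 3.3e-08, SE 0.112).

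Single genes of cell recognition, secretion and membrane traffic also fell. Roughest (rst), an immunoglobulin family recognition protein, was at 41.4, 58.9 and 42.4 CPM in control and 1.02, 7.15 and 8.22 CPM in SvbREP, and its annotation overlaps that of its relative kirre. CrebA, a transcription factor that raises the capacity of the secretory pathway, was at 206, 151 and 230 CPM in control and 59, 52.5 and 18.9 CPM in SvbREP. Synaptotagmin 4 (Syt4), a vesicle protein, was at 42.7, 41.5 and 37.9 CPM in control and 1.36, 3.85 and 0.175 CPM in SvbREP. Every SvbREP library was well under every control library in all 3 genes. The log2 fold changes were -3.02 for rst (edgeR adjusted p = 0.000372, SE 0.409), -2.21 for CrebA (edgeR adjusted p = 0.000263, SE 0.288) and -4.6 for Syt4 (edgeR adjusted p = 0.000325, SE 0.615). For Syt4 the value was -6.0 without SvbREP replicate 2 and -3.91 without SvbREP replicate 3, with the SvbREP libraries at few counts. Lethal giant larvae, l(2)gl, a regulator of cell polarity and asymmetric division, was at 905, 728 and 880 CPM in control and 366, 394 and 448 CPM in SvbREP, a log2 fold change of -1.05 (edgeR adjusted p = 0.000153, SE 0.129). Of 15 tested polarity genes it was the only one called.

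A cluster of neighbouring transcripts on chromosome 3R had large decreases from even control levels. CG6912 was at 153, 112 and 134 CPM in control and 1.36, 5.22 and 1.57 CPM in SvbREP. The antisense RNA asRNA:CR45600 was at 106, 100 and 108 CPM in control and 3.73, 0.275 and 1.05 CPM in SvbREP. CG3984 was at 17.5, 15.6 and 12.4 CPM in control and 2.37, 0.275 and 0.7 CPM in SvbREP. The annotation of the antisense RNA overlaps both protein-coding genes, so the counts of the 3 cannot be taken as separate measurements while the strand setting is unknown. Their log2 fold changes were -5.64 (edgeR adjusted p = 2.89e-06, SE 0.461), -6.1 (edgeR adjusted p = 1.48e-07, SE 0.392) and -3.86 (edgeR adjusted p = 0.000558, SE 0.548). Leaving out SvbREP replicate 2 moved CG6912 to -6.44, and leaving out SvbREP replicate 1 moved asRNA:CR45600 to -7.09 and CG3984 to -4.78.

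**Figure D2:**
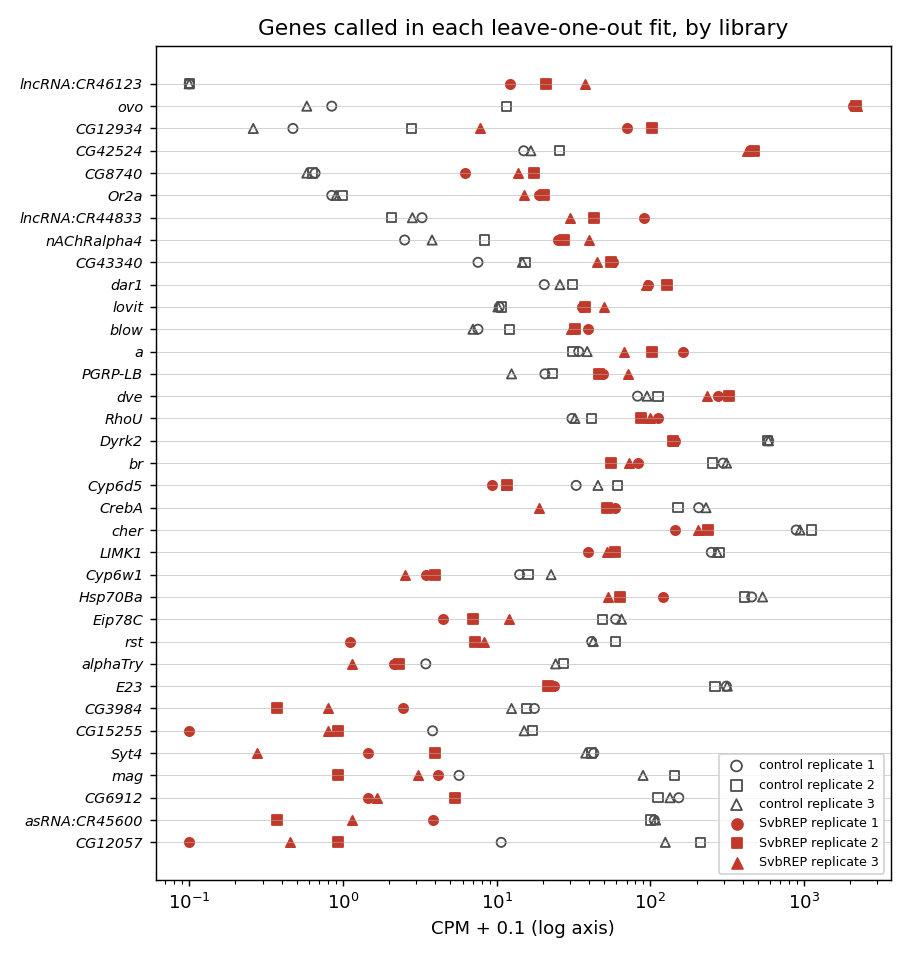
Level of 35 named genes in each library, in CPM + 0.1 on a log axis, ordered by log2 fold change. Open grey symbols are control and filled red symbols are SvbREP libraries, with a circle, square and triangle for replicates 1, 2 and 3. In every gene shown the red and grey symbols do not overlap, which the rule that named these genes required. Control replicate 1 lies near the SvbREP libraries for mag, alphaTry and CG15255.

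Several glycolytic genes were called lower. Of 15 tested genes for glycolysis and pyruvate entry, 8 were called lower and 0 higher, and the list median was -0.47 on the log2 scale against -0.003 for all genes. The summed level was 2682, 2882 and 2851 CPM in control and 2189, 2142 and 1865 CPM in SvbREP. Gapdh1, which encodes glyceraldehyde 3-phosphate dehydrogenase, was at 125, 142 and 153 CPM in control and 78.4, 76.1 and 75.8 CPM in SvbREP. Its paralog Gapdh2 was at 219, 239 and 251 CPM in control and 145, 143 and 131 CPM in SvbREP. Triose phosphate isomerase (Tpi) was at 109, 132 and 134 CPM in control and 75.3, 66.8 and 66.1 CPM in SvbREP. In these 3 genes each SvbREP library was under each control library, with log2 fold changes of -0.87 (edgeR adjusted p = 0.000157, SE 0.108), -0.76 (edgeR adjusted p = 0.000297, SE 0.101) and -0.85 (edgeR adjusted p = 0.000969, SE 0.128). Reads of the Gapdh paralogs could be split between them by the counting.

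The other called members were Pgi, Pfk, Pgk, Pglym78 and the mitochondrial pyruvate carrier gene Mpc1. Their log2 fold changes ran from -0.45 for Pgk to -1.07 for Mpc1, and none of the 5 was called in all 6 fits that left out a library. Pgi was called in 5 of these fits, Pglym78 in 4, Mpc1 in 2, Pgk in 1 and Pfk in 0. The hexokinase gene Hex-A was at 321 ± 46.3 CPM in control and 232 ± 35.7 CPM in SvbREP (SD, n = 3 each), and enolase (Eno) at 338 ± 18.4 and 258 ± 33.7 CPM, neither past the threshold. Lactate dehydrogenase (Ldh), which turns pyruvate into lactate, was at 10.4 ± 5.7 and 22.5 ± 17.1 CPM, with SvbREP replicate 3 under the controls and the other SvbREP libraries above them. In all, 11 of the 15 genes had every SvbREP library under every control library, against 837 of the 7992 genes tested (10.5%). The count of 8 was 4, 5 and 6 without SvbREP replicates 1, 2 and 3, 5, 6 and 4 without control replicates 1, 2 and 3, and 4 at an adjusted p under 0.01. It was 0 higher in every one of these fits. Genes for 32 subunits of respiratory chain complex I had no call by edgeR or DESeq2 and 2 with an unadjusted p under 0.05 in edgeR, with a list median of -0.1.

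**Figure D3:**
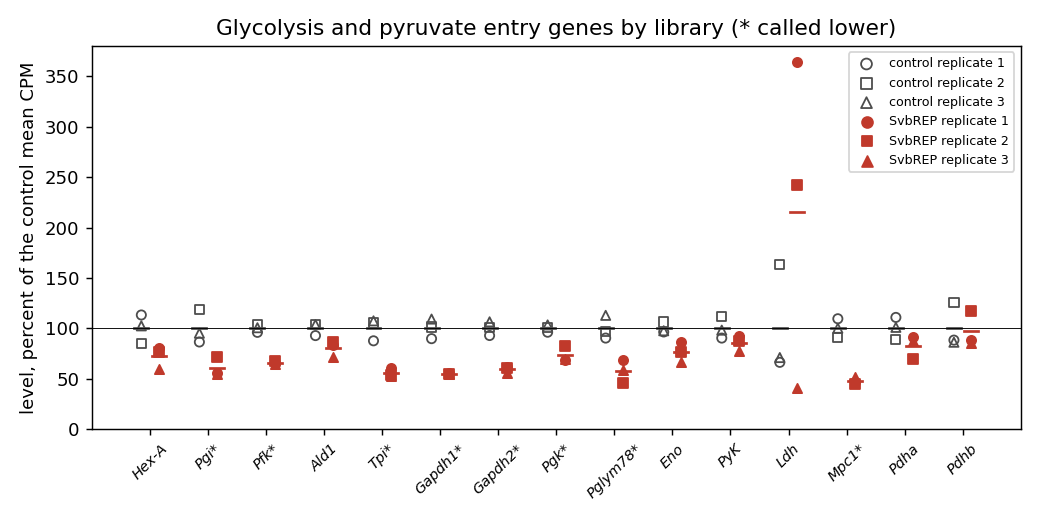
Level of each tested gene for glycolysis and pyruvate entry in each library, as a percent of the control mean CPM, with short bars for the group means and an asterisk for genes called lower. Symbols are as in the plot of named genes by library. The 8 genes with an asterisk have all SvbREP libraries under the controls, and Ldh is spread widely in both groups.

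Regulators of the Imd pathway, the gut's response to bacterial peptidoglycan, moved in both directions. PGRP-LB, an amidase that breaks down peptidoglycan and dampens the pathway, was at 20.5, 23.1 and 12.4 CPM in control and 48.9, 46.2 and 70.9 CPM in SvbREP, a log2 fold change of 1.57 (edgeR adjusted p = 0.00296, SE 0.272). Pirk, an inhibitor that acts on the PGRP-LC receptor, was at 170, 131 and 150 CPM in control and 49.9, 59.1 and 70.5 CPM in SvbREP, a log2 fold change of -1.32 (edgeR adjusted p = 0.000153, SE 0.162). The groups did not overlap in either gene. The intracellular sensor gene PGRP-LE and the decoy receptor gene PGRP-LF were called lower at -1.1 and -0.79, and each lost the call in at least 4 of the 6 fits that left out a library. The receptor gene PGRP-LC was at 300 ± 36.8 CPM in control and 266 ± 15.6 CPM in SvbREP (SD, n = 3 each). Of 13 tested genes of this list, 1 was called higher and 3 lower, with a median of -0.24.

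Genes of detoxification and redox defence included several decreases. The cytochrome P450 gene Cyp6a13 was at 70.3, 60.2 and 71.4 CPM in control and 21.7, 30.5 and 23.8 CPM in SvbREP, and Cyp6d5 at 32.8, 60.7 and 45.5 CPM and 9.16, 11.5 and 11.4 CPM. Cyp6w1 was at 14, 15.9 and 22.5 CPM in control and 3.39, 3.85 and 2.45 CPM in SvbREP. All 3 genes had separate groups, with log2 fold changes of -1.41 (edgeR adjusted p = 6.12e-05, SE 0.157), -2.1 (edgeR adjusted p = 0.000111, SE 0.25) and -2.45 (edgeR adjusted p = 0.0038, SE 0.441). No other cytochrome P450 gene among the 40 tested was called, and the list median was 0.09. Gclc, the catalytic subunit of the enzyme that limits glutathione synthesis, was at 317, 313 and 298 CPM in control and 192, 204 and 192 CPM in SvbREP, a log2 fold change of -0.66 (edgeR adjusted p = 0.00104, SE 0.0995). The heat shock gene Hsp70Ba was at 456, 409 and 537 CPM in control and 120, 63.5 and 53.2 CPM in SvbREP, with a log2 fold change of -2.58 (edgeR adjusted p = 8.11e-05, SE 0.298). Near-identical Hsp70 copies can share reads, so this value is uncertain for the single copy. Hsp70Ba was the only one of 20 tested heat shock and chaperone genes that was called.

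Among stem cell and signalling genes, the calls were few and small. The progenitor factor escargot (esg), whose enhancer drives Gal4 here, was at 2171, 1872 and 2038 CPM in control and 1300, 1246 and 1329 CPM in SvbREP. The groups did not overlap, and the log2 fold change was -0.65 (edgeR adjusted p = 0.00346, SE 0.115). No other of the 16 progenitor markers was called. Delta (Dl), the Notch ligand of stem cells, was at 957.5 ± 94.8 CPM in control and 1178 ± 176 CPM in SvbREP, and Sox21a at 307 ± 15.6 and 305 ± 80.5 CPM (SD, n = 3 each). Fringe (fng), the glycosyltransferase that changes how Notch answers its ligands, was the only one of 20 tested Notch pathway genes called. It was at 141, 161 and 166 CPM in control and 366, 299 and 302 CPM in SvbREP, a log2 fold change of 1.05 (edgeR adjusted p = 0.00325, SE 0.183). Mkp3, a phosphatase that restrains MAP kinase signalling, fell by 0.92 on the log2 scale (edgeR adjusted p = 0.00171, SE 0.149). It went from 334, 374 and 433 CPM in control to 215, 234 and 154 CPM in SvbREP. The secreted EGFR antagonist gene argos (aos) was also called lower at -0.46, and it was called in 0 of the 6 fits that left out a library.

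The JNK target Mmp1, a secreted matrix metalloprotease, was at 159, 154 and 200 CPM in control and 453, 402 and 250 CPM in SvbREP, with replicate 3 nearest the controls. Its log2 fold change was 1.1 (edgeR adjusted p = 0.0127, SE 0.233), and the call was lost without SvbREP replicate 1 or replicate 2. The kinase gene hep and the TNF ligand gene egr, which act upstream in the pathway, were called lower at -0.46 and -0.51, each in no more than 2 of the 6 fits that left out a library. In the Hippo pathway ft was called higher at 1.33 and ex lower at -0.41, each in 2 of the 6 such fits. In the insulin and TOR list the translation inhibitor gene Thor was called lower at -0.63, in 3 of the 6. No gene was called by edgeR among 31 tested cell cycle genes, 14 Wnt, 10 BMP and 9 JAK/STAT pathway genes, 11 apoptosis genes and 21 Polycomb and trithorax group genes. Their list medians lay between -0.11 and 0.06, and of these 96 genes 15 (15.6%) had an unadjusted p under 0.05 in edgeR and 2 were called by DESeq2. Over all genes tested 1427 (17.9%) had an unadjusted p under 0.05. There was likewise no call among 77 cytosolic ribosomal protein genes, 69 mitochondrial ribosomal protein genes and 30 proteasome subunit genes, where 19 of 176 (10.8%) had an unadjusted p under 0.05 and DESeq2 called 0. Only 4 of 18 listed epidermal targets of Svb were tested, among them forked (f), singed (sn) and WASp. None was called by edgeR or DESeq2, 3 had an unadjusted p under 0.05 in edgeR, and their median was 0.78, with 3 of the 4 above the controls in SvbREP replicates 1 and 2 but not in replicate 3.

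Some genes of secreted digestive enzymes and of enterocyte identity were called lower in SvbREP, and several of them were also low in control replicate 1. The lipase gene magro (mag) was at 5.59, 143 and 89.5 CPM in control and 4.07, 0.824 and 2.97 CPM in SvbREP. Its log2 fold change was -4.92 (edgeR adjusted p = 0.0038, SE 0.886), and -4.18 without control replicate 2. The trypsin gene alphaTry was at 3.36, 27 and 24.1 CPM in control and 2.04, 2.2 and 1.05 CPM in SvbREP. In both genes control replicate 1 lay much nearer to the SvbREP libraries than to the other controls. The summed digestive enzymes were at 132, 1256 and 1197 CPM in control and 108, 152 and 127 CPM in SvbREP. Of 31 tested members 2 were called lower, alphaTry and kappaTry, the latter in 1 of the 6 fits that left out a library, with a list median of -2.82, and the authors' deposited table calls 21 lower. The transcription factor gene Hnf4, which supports lipid metabolism in enterocytes, did not share this pattern among the controls. It was at 277, 258 and 262 CPM in control and 123, 161 and 188 CPM in SvbREP, a log2 fold change of -0.75 (edgeR adjusted p = 0.00346, SE 0.133). Of 12 tested enterocyte identity genes 3 were called lower, and the list summed to 709, 1050 and 879 CPM in control and 732, 874 and 713 CPM in SvbREP, so the groups overlapped. Of the 216 genes called lower, 26 had control replicate 1 under 50% of both other controls, a description made after the values were seen. These 26 include 10 of the 15 decreases with the largest fold among genes above 10 CPM, such as CG12057, which was at 10.6, 211 and 125 CPM in control and 0, 0.824 and 0.35 CPM in SvbREP. Its fitted log2 fold change was between -8.84 and -7.3 when single libraries were left out. All 26 were still called without control replicate 1, 13 without control replicate 2 and 9 without control replicate 3. The part of the enterocyte transcripts of control replicates 2 and 3 in these decreases was not tested.

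The genes that rose were led by transcripts with little level in control. CG42524 (chromosome 2R, 15613854 to 15657214) was at 14.9, 25.6 and 16.6 CPM in control and 446, 472 and 422 CPM in SvbREP. The SvbREP libraries were close to each other, and the log2 fold change was 4.55 (edgeR adjusted p = 6.1e-09, SE 0.217). The odorant receptor gene Or2a was at 0.746, 0.895 and 0.804 CPM in control and 18.7, 20.3 and 14.9 CPM in SvbREP, a log2 fold change of 4.42 (edgeR adjusted p = 2.93e-05, SE 0.451). CG12934 was at 0.373, 2.69 and 0.161 CPM in control and 70.2, 102 and 7.7 CPM in SvbREP. It rose in every library, with replicate 3 far below the others, and its log2 fold change of 5.78 (edgeR adjusted p = 0.00119, SE 0.896) was 5.15 without SvbREP replicate 2 and 7.71 without control replicate 2. A noncoding RNA, lncRNA:CR46123, had 0 counts in all control libraries and was at 12.2, 20.9 and 37.3 CPM in SvbREP. Its SvbREP mean was at least 43.5-fold higher than the control floor of 3 counts per library.

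Transcription factors and signalling proteins were among the named increases. Dar1, a Kruppel-like zinc finger factor known from the shaping of neuronal dendrites, was at 20.3, 31 and 25.7 CPM in control and 97, 129 and 93.6 CPM in SvbREP, a log2 fold change of 2.05 (edgeR adjusted p = 0.00341, SE 0.362). Defective proventriculus (dve), a homeobox factor of the midgut, was at 82.4, 112 and 95 CPM in control and 275, 325 and 233 CPM in SvbREP, a log2 fold change of 1.53 (edgeR adjusted p = 0.000745, SE 0.223). Both genes were raised in each SvbREP library by similar amounts. The GTPase gene RhoU rose from 30.8, 41.2 and 32.2 CPM to 112, 87.4 and 98.9 CPM, a log2 fold change of 1.52 (edgeR adjusted p = 5.09e-05, SE 0.166). Arc (a), a PDZ domain protein of epithelial junctions, was at 34.1, 31.3 and 38.7 CPM in control and 164, 102 and 67.4 CPM in SvbREP. Its log2 fold change was 1.66 (edgeR adjusted p = 0.00191, SE 0.274). Blown fuse (blow), known from the fusion of myoblasts, was at 7.46, 12 and 6.91 CPM in control and 39, 32.2 and 30.4 CPM in SvbREP. Its annotation overlaps Vps13. In each of these genes the lowest SvbREP library lay above the highest control library.

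The genes nAChRalpha4, lovit and AGO3 rose in all 3 SvbREP libraries. The nicotinic acetylcholine receptor subunit gene nAChRalpha4 was at 2.42, 8.24 and 3.7 CPM in control and 24.8, 27.5 and 39.9 CPM in SvbREP. Its log2 fold change was 2.68 (edgeR adjusted p = 0.00585, SE 0.511), and 3.32 without control replicate 2. Lovit, a transporter needed for histamine release from fly photoreceptors, was at 10.3, 10.6 and 10.1 CPM in control and 35.6, 37.6 and 50 CPM in SvbREP, a log2 fold change of 2.0 (edgeR adjusted p = 4.14e-05, SE 0.213). Replicate 3 was the highest SvbREP library for both, unlike the enteroendocrine genes described below. AGO3, a piRNA pathway protein known from the germline, was at 16, 21.7 and 15.9 CPM in control and 42.1, 36.3 and 33.4 CPM in SvbREP, a log2 fold change of 1.05 (edgeR adjusted p = 0.00376, SE 0.189). It was the only one called among 14 tested piRNA pathway genes.

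A second class of changes was present in SvbREP replicates 1 and 2 but did not pass the controls in replicate 3, and is called absent there. To find these genes without using replicate 3, the fit was repeated with that library left out and the library was read afterwards. The fit called 460 of 8175 genes (5.63%), 232 higher (2.84%) and 228 lower (2.79%). For 134 of the 460 (29.1%) the left-out library was not beyond the controls, inside their range for 104 and past it on the other side for 30. Absence in this sense does not mean no shift. Replicate 3 lay on the called side of the control mean for 395 of the 460 genes, 175 higher and 220 lower. The same procedure gave 6 of 195 genes (3.08%) when replicate 1 was the library left out, out of 2.39% of genes called. It gave 3 of 182 (1.65%) for replicate 2, out of 2.23% called. The genes higher without replicate 3 carried most of this class, with 103 of 232 (44.4%) absent in replicate 3 against 31 of 228 lower genes (13.6%). Among the higher genes the median difference from the control mean, in log2(CPM + 1), was 1.34 for replicates 1 and 2 and 0.33 for replicate 3. Among the lower genes the medians, signed by the direction of the call, were 1.05 and 0.74. Of the 134 genes, 3 were called with all 3 libraries in the fit. The count was 40 of 299 called genes (13.4%) when control replicate 1 was also left out, 135 of 798 (16.9%) when control replicate 2 was and 29 of 195 (14.9%) when control replicate 3 was. The share of 29.1% was thus not kept in any of these fits. In them the control range came from the remaining controls and was never wider, so a library lies beyond it more easily. The lower shares therefore cannot show whether a particular control library matters.

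**Figure D4:**
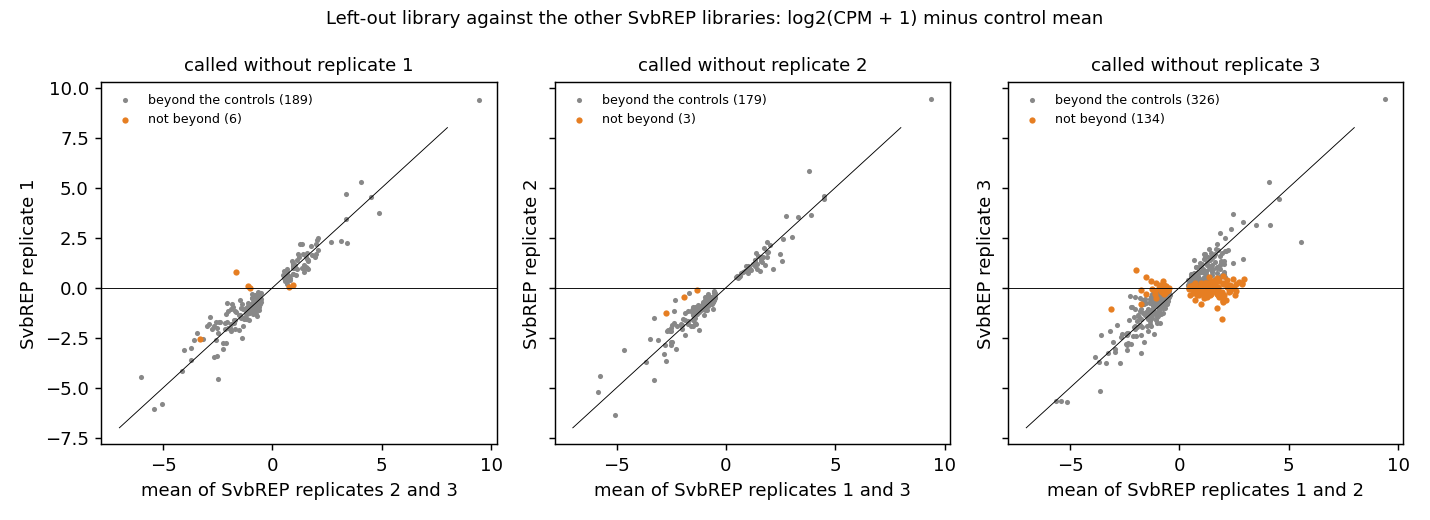
Level of the left-out SvbREP library minus the control mean (vertical axis) against the mean of the other 2 SvbREP libraries minus the control mean (horizontal axis), in log2(CPM + 1), for the genes called without that library. Genes in orange have the left-out library not beyond the controls and the diagonal marks equal values. Orange genes number 6, 3 and 134 for replicates 1, 2 and 3, and for replicate 3 they lie mostly at the right near a vertical value of 0.

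The higher genes absent in replicate 3 included hormones and secretory proteins of enteroendocrine cells. Tachykinin (Tk), a gut peptide hormone, was at 29.8, 65.2 and 37.5 CPM in control and 207, 210 and 35.7 CPM in SvbREP. IA-2, a dense core vesicle protein, was at 159, 519 and 190 CPM in control and 1735, 1957 and 298 CPM in SvbREP. Neuropeptide F (NPF) was at 158, 339 and 110 CPM in control and 625, 788 and 154 CPM in SvbREP. In each gene replicates 1 and 2 stood above all controls and replicate 3 lay inside their range. Without replicate 3 the log2 fold changes were 2.24 for Tk (edgeR adjusted p = 0.0024, SE 0.365), 2.68 for IA-2 (edgeR adjusted p = 0.00395, SE 0.465) and 1.81 for NPF (edgeR adjusted p = 0.0472, SE 0.498). With all libraries in the fit their adjusted p-values were 0.0758, 0.0511 and 0.213.

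Most tested members of the enteroendocrine list had the same pattern. Of 23 tested members 0 were called by edgeR with all libraries, 7 had an unadjusted p under 0.05 and DESeq2 called 1. Without replicate 3 edgeR called 7 higher, which were Tk, IA-2, NPF, amon, svr, Phm and brp. Replicates 1 and 2 lay above all controls and replicate 3 did not for 16 of the 23 members (69.6%), against 793 of all genes tested (9.92%). The list median was 1.26 with all libraries and 1.76 without replicate 3. Amon and svr encode processing enzymes of peptide hormones, and Phm amidates the finished peptides. Bruchpilot (brp), a protein of the active zone, was at 9.14, 39.8 and 8.84 CPM in control and 84.8, 107 and 13.1 CPM in SvbREP. The fate factor gene prospero (pros) was at 60.3 ± 48.2 CPM in control and 148 ± 103 CPM in SvbREP (SD, n = 3 each). It did not pass the test. Sh and cac, genes of ion channels, had the pattern as well. The potassium channel gene Shaker (Sh) was at 5.41, 13.1 and 8.52 CPM in control and 46.1, 48.1 and 7.87 CPM in SvbREP, and the calcium channel gene cac at 29.6, 34.9 and 28.5 CPM and 99.4, 101 and 26.2 CPM.

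Neuron and glia markers summed to 270, 268 and 262 CPM in control and 321, 340 and 202 CPM in SvbREP, and repo, para and VGlut of that list are not in the table analysed here. Of the 5 tested, 4 (80%) were above the controls in replicates 1 and 2 but not in replicate 3, against 9.92% of all genes tested. The neuronal marker elav was instead under the controls in each SvbREP library. Appl, fne and cac were called higher without replicate 3 and were absent there. None of the 5 was called with all libraries by edgeR or DESeq2, and 4 had an unadjusted p under 0.05 in edgeR. Enteroendocrine markers, summed, were at 2145 to 3057 CPM in control and 5128, 6274 and 2373 CPM in SvbREP, with no tested member at 0 throughout a group. Both marker lists moved with the higher genes absent in replicate 3, and their part in that class was not tested. The cytokine gene upd2, which is not on the enteroendocrine list, had the same pattern. It was at 55.6, 61.8 and 64.3 CPM in control and 150, 148 and 59.5 CPM in SvbREP, a log2 fold change without replicate 3 of 1.3 (edgeR adjusted p = 0.0167, SE 0.287). Replicates 1 and 2 were well above the narrow range of the controls, and replicate 3 lay inside it.

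**Figure D5:**
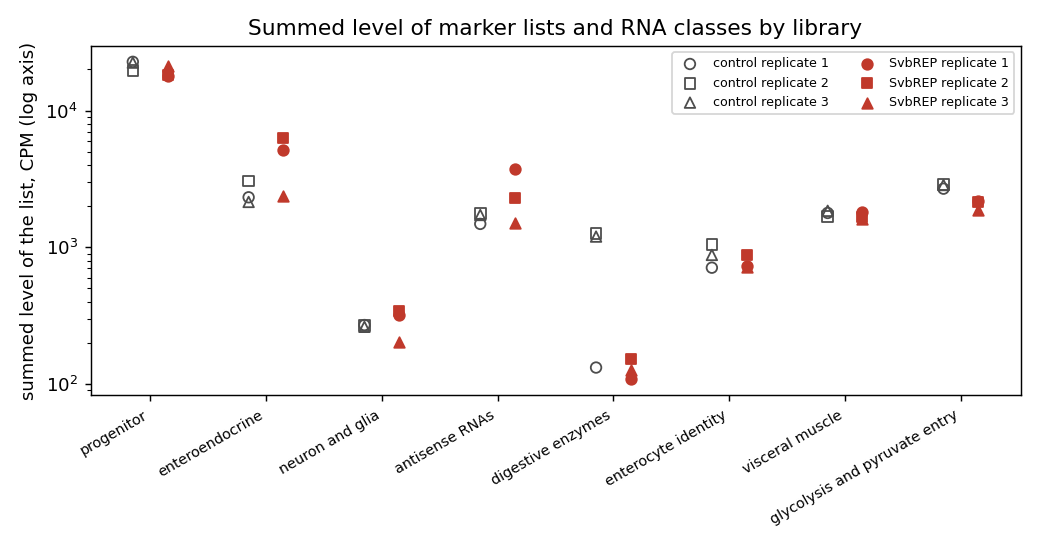
Summed level of marker lists and RNA classes in each library, in CPM on a log axis, with open grey symbols for control and filled red symbols for SvbREP libraries. Enteroendocrine markers and antisense RNAs are raised in SvbREP replicates 1 and 2 but not in replicate 3, and digestive enzymes are high in control replicates 2 and 3 alone.

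Annotated antisense RNAs made up 21 of the 134 genes of this class, and enteroendocrine genes 7. Of the 7992 genes tested with all libraries, 203 were antisense RNAs and 23 were on the enteroendocrine list. The antisense RNAs summed to 1482, 1758 and 1722 CPM in control and 3714, 2274 and 1494 CPM in SvbREP, so replicate 1 was the highest and replicate 3 lay at the lower end of the controls. Of 203 tested, 25 were called higher without replicate 3, against 232 of 8175 genes (2.84%) in that fit. With all libraries 2 were called higher and 2 lower, and the list median was 0.69. Replicates 1 and 2 were above the controls and replicate 3 was not for 74 of the 203 (36.5%), against 9.92% of all genes tested. An example is asRNA:CR44897, which overlaps robo2 and was at 50, 92.8 and 66.4 CPM in control and 269, 130 and 73.1 CPM in SvbREP. Another, asRNA:CR45129, overlaps Dscam1 and was at 88.4, 118 and 117 CPM in control and 307, 171 and 102 CPM in SvbREP. In both, replicate 1 was the highest and replicate 3 lay inside the control range. SvbREP replicates 1 and 2 were the libraries with the fewest counts, and the part of depth in this pattern was not tested.

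The 31 lower genes absent in replicate 3 were changed by less, with a median log2 fold change of -0.89 without that library. Ribosomal protein genes were among them. RpL39 was at 534, 252 and 458 CPM in control and 189, 178 and 357 CPM in SvbREP, and RpS29 at 1242, 620 and 1041 CPM and 555, 536 and 849 CPM. The control libraries themselves spread widely in both genes. The zinc finger homeodomain factor gene zfh2 was at 4462, 3236 and 4318 CPM in control and 2205, 2524 and 3398 CPM in SvbREP, a log2 fold change without replicate 3 of -0.76 (edgeR adjusted p = 0.0219, SE 0.176). The small heat shock gene Hsp23 was at 1367, 1169 and 1435 CPM in control and 786, 878 and 1182 CPM in SvbREP. In all 4 genes replicate 3 was the highest SvbREP library and lay inside the control range, though still under the control mean. Small nucleolar and other small RNAs summed to 12978 to 15687 CPM in control and 8406, 10584 and 14423 CPM in SvbREP, and 3 of 22 tested were called lower with all libraries, each in 2 of the 6 fits that left out a library. They were snoRNA:Psi18S-301, snoRNA:Psi18S-176 and snoRNA:Me18S-A1806, the last of which was itself absent in replicate 3.

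Whether the named changes differ from those of the activator form was read from the direct contrast of SvbREP with SvbACT, which shares the SvbREP libraries with the comparison above. Over all genes 1050 of 7992 (13.1%) passed the threshold, and 24 of the 50 genes named for the largest changes did. The ovo transcript did not differ between the forms, with a log2 difference of 0.01 (edgeR adjusted p = 0.989). Br was at 3642, 3173 and 3680 CPM in SvbACT, above control and SvbREP, and SvbREP was lower by a log2 difference of -5.64 (edgeR adjusted p = 4.32e-11). Cher was at 2002, 2257 and 1929 CPM in SvbACT, Dyrk2 at 1409, 1206 and 1417 CPM and rst at 117, 136 and 85.8 CPM. In these 4 genes every SvbACT library lay above the controls and every SvbREP library below them. In svb RNAi, br was also above the controls, at 1988, 1769 and 2490 CPM. Cher, Dyrk2 and rst were under the controls in svb RNAi, at 509 to 674, 233 to 298 and 5.49 to 12.8 CPM. For E23, SvbACT was at 426, 363 and 515 CPM and the difference of SvbREP was -4.29 (edgeR adjusted p = 8.22e-11).

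A second set of decreases was low in both forms. LIMK1 was at 116, 114 and 121 CPM in SvbACT, between the control and SvbREP levels, with a log2 difference of SvbREP of -1.22 (edgeR adjusted p = 2.08e-05). Syt4 was at 0.935, 0.608 and 2.45 CPM in SvbACT, CG6912 at 0, 1.62 and 3.85 CPM and Hsp70Ba at 54.7, 36.5 and 82.1 CPM. For these 3 genes the contrast of the forms did not pass the threshold, with edgeR adjusted p-values of 0.877, 0.744 and 0.406, and all SvbACT libraries were under the controls. A missed threshold does not show that the forms act alike on them. Syt4 and Hsp70Ba were also low in the svb RNAi libraries, at 2.86, 1.43 and 0.886 CPM and at 72.9, 47.3 and 56.5 CPM. Their decrease was therefore not particular to the overexpressed forms, and its cause was not tested. Every SvbACT and svb RNAi library was also under the controls for Hnf4, Cyp6d5, Cyp6w1 and Mpc1. CrebA, pirk, ena, l(2)gl and Cyp6a13 were under the controls in each svb RNAi library. Their svb RNAi means were 60.6, 57.9, 198, 457 and 21.6 CPM, against SvbREP means of 43.5, 59.8, 194, 403 and 25.3 CPM. For E23, Eip78C and Gapdh2 no svb RNAi library was under the controls. CG6912 was at 117, 93.4 and 105 CPM in svb RNAi, and LIMK1 at 203, 160 and 180 CPM. Among the increases, CG42524 was at 10.3, 6.48 and 6.3 CPM in SvbACT, a log2 difference of 5.88 (edgeR adjusted p = 3.21e-10), and PGRP-LB at 5.14, 2.84 and 5.25 CPM, a difference of 3.65 (edgeR adjusted p = 9.06e-07). Both lay under the controls in SvbACT. Fng was at 55.6, 79.4 and 39.6 CPM and Mmp1 at 32.7, 48.8 and 24.9 CPM in SvbACT, also under every control library. Or2a, AGO3 and arc were instead above the controls in each SvbACT library, at 5.84 to 10.9, 37.3 to 46.3 and 104 to 161 CPM. In svb RNAi, AGO3 was also above the controls, at 47.1, 41.8 and 35.3 CPM. Lovit was above every control library in both groups, at 17.7 to 22.7 CPM in SvbACT and 46.8 to 71.2 CPM in svb RNAi. Or2a was at 1.1, 0.357 and 0.354 CPM in svb RNAi and arc at 6.39, 3.22 and 5.32 CPM.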

How the data were processed

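RNA from sorted midgut progenitor cells was sequenced as single reads of 100 nt from Ovation SoLo libraries on a NovaSeq instrument, per the labels' protocols. The submitters' processing notes name FastQC 0.11.5, STAR 2.5.2b, HTSeq 0.6.0, edgeR and genome build dm6, and the strand setting is not given in the sources used here. The authors deposited whole-number counts of 8802 genes in 12 libraries without normalization. The same deposited table holds the authors' log2 fold changes, their unadjusted p-values and their calls, which are coded as a score. These were used only where the authors' table is named.

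Group differences were tested in edgeR 4.0.16 (limma 3.58.1, R 4.3.3) by its quasi-likelihood test on the counts of all 12 libraries in 4 groups of 3, with TMM factors and a mean per group. The filter filterByExpr (minimum count 10, minimum total 15, proportion 0.7) left 7992 genes, and genes with a Benjamini-Hochberg adjusted p-value under 0.05 were called. The biological coefficient of variation was 22.9%. In simulated data of 7857 genes for this comparison, the test recovered 59% of changes of 1 log2 unit and 93% of changes of 2, with 10 false calls. The simulated spread followed the fitted trend, no library stood apart, and changes were placed only in genes above a set expected count. These figures can therefore be too favourable for the real libraries and for low transcripts. Standard errors are the log2 fold change divided by the root of F. Log2 differences of single libraries use a pseudocount of 1 CPM. No pair of libraries within either group matched to sampling noise, the smallest chi-square per degree of freedom being 7.89, so each counts as 1 sample. P-values measure the spread between these samples. Floors cover counting error only, since PCR copies are not independent molecules.

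Positions are those of Ensembl release 115, whose coordinates are those of dm6, and 8686 of the 8802 identifiers matched. Of 164 named genes, 74 overlap another gene of the table, and their counts are uncertain without a strand setting. Genes were named by rule: ovo, the 15 higher and 15 lower genes with the largest fold among called genes beyond the controls in all 3 libraries and at a mean of at least 10 CPM in the higher group, the same among genes with a given name, members of gene lists that were called or absent in replicate 3, and the genes with the largest fold among those absent in replicate 3. Uncalled list members shown for comparison, such as EcR and pros, were chosen after their values were seen. The members, gene lists and rules were chosen with earlier results of these data known. Lists are described by counts and medians and were not tested as sets. Alternatives were DESeq2 1.42.0, its size factors in edgeR, other filters, the 6 libraries alone, a replicate block, a stricter threshold and leaving out each library.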

Additional observations from a re-analysis of the deposited data

How the results depend on the processing

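Of the 99 named genes that were called, 0 changed direction under any alternative, 52 stayed called in each fit that left out a library and 50 under every alternative. The count of genes called was 324. It was 526 with DESeq2, 224 with the 6 libraries alone and 151 at an adjusted p under 0.01. When leaving out each library in turn it was 172 to 460. Genes called higher were 108, and were 221 with DESeq2, 69 with the 6 libraries alone, 44 at 0.01 and 54 to 232 without a library. Genes called lower were 216, and were 107 at 0.01 and 118 to 234 without a library. Genes called and seen in all 3 SvbREP libraries were 315, and were 475 with DESeq2 and 151 at 0.01. With a library left out, 171 to 459 genes were called with every SvbREP library of that fit beyond its controls, the highest being the fit without SvbREP replicate 3. Genes absent in replicate 3 were 134, and were 235 with DESeq2, 83 with the 6 libraries alone, 23 at 0.01, 212 when absence meant within 0.5 log2 units of the control mean, and 29 to 135 without a control library. The 24 named genes past the threshold against SvbACT were 22 to 28 without a library. The cause of these shifts was not tested, apart from the stricter threshold and the smaller number of libraries, which act by construction. Replicate numbers were not used as pairs in the main fit. Deviations of same-numbered control and SvbREP libraries correlated at -0.0809, 0.246 and 0.117, and those of unlike-numbered libraries between -0.288 and 0.21. With 3 libraries a group, these values cannot settle whether the numbers mark shared batches. Under a replicate block, 663 genes were called, 255 higher and 408 lower, among them all 324 of the main fit. Of these 663, 527 were seen in all 3 libraries. In the block fit without replicate 3, 218 genes were absent in replicate 3. The contrast with SvbACT could not be fitted with the 6 libraries alone. Other size factors, no count filter and a minimum count of 50 kept each of these counts within 1.5 times. SvbREP replicates 1 and 2 had the highest floors, so low transcripts are least certain there.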

Other observations

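The genes in these paragraphs were picked from the called genes after their values were seen, outside the naming rule, and are given as values. Trehalase (Treh), which splits the blood sugar trehalose, was at 314.55, 344.19 and 332.31 CPM in control and 138.42, 182.2 and 133.33 CPM in SvbREP, a log2 fold change of -1.13 (edgeR adjusted p = 6.12e-05). Inos, which makes inositol phosphate from glucose 6-phosphate, fell by 1.13 on the log2 scale (edgeR adjusted p = 0.000627), and the hypoxia factor gene sima fell by 0.52 (edgeR adjusted p = 0.00439). Glutamate dehydrogenase (Gdh) was higher, at 229, 265 and 219 CPM in control and 511, 434 and 479 CPM in SvbREP, a log2 fold change of 1.00 (edgeR adjusted p = 2.93e-05). It was at 96.8, 99.1 and 95.4 CPM in SvbACT. The giant nesprin gene Msp300, which links nuclei to the cytoskeleton, rose from 7694, 7010 and 7905 CPM to 14974, 13894 and 15718 CPM (log2 fold change 0.98, edgeR adjusted p = 0.000157). The mechanosensitive channel gene Piezo rose from 174, 249 and 187 CPM to 379, 409 and 469 CPM (log2 fold change 1.04, edgeR adjusted p = 0.000468). Each of these genes was called in all 6 fits that left out a library.

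Genes of cyclic nucleotide signalling and of cell recognition also appeared among the calls. The adenylyl cyclase gene Ac13E was at 98.3, 109 and 108 CPM in control and 35.6, 42.3 and 45.7 CPM in SvbREP, a log2 fold change of -1.34 (edgeR adjusted p = 0.000357), and the phosphodiesterase gene Pde6 fell by 0.92 (edgeR adjusted p = 0.00416). The netrin receptor gene unc-5 was at 43.4, 75.4 and 61.6 CPM in control and 20.4, 25 and 17.8 CPM in SvbREP, and at 280, 353 and 327 CPM in SvbACT. Its log2 fold change was -1.52 (edgeR adjusted p = 0.000242). The adhesion gene Fas2 fell by 0.71 (edgeR adjusted p = 0.00181), while DIP-alpha and beat-IIa rose by 0.97 (edgeR adjusted p = 0.00017) and 0.96 (edgeR adjusted p = 0.0105). The NF-kappaB inhibitor gene cactus (cact) fell by 0.78 (edgeR adjusted p = 0.00117). The eye colour gene w, copies of which commonly mark UAS transgenes, was at 1287, 1602 and 1447 CPM in control, 2057, 2053 and 2308 CPM in SvbREP and 2724, 3141 and 2737 CPM in SvbACT, with a log2 fold change of SvbREP over control of 0.57 (edgeR adjusted p = 0.0081). Each of these genes was called in all 6 fits that left out a library.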
